A study of Mus musculus with 8 samples.

Results

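The genes described here are 8 genes of myogenesis, the making of muscle fibres: the myogenic factors Myf5, Myod1, Myog and Myf6, the fusion proteins Mymk and Mymx, and the adhesion proteins Cdh15 and Ncam1. They were chosen by symbol and looked up by mouse Ensembl identifier, and all 8 were among the 23008 mouse genes of the deposited table. Wild-type C57BL/6J mice had received a construct that the labels call GNDM, packaged in AAV9, an adeno-associated virus used to deliver genes to muscle through the blood. There were 4 libraries for guide m31, directed at Lama1, and 4 for a non-targeting control guide. The injection went into the tail vein, at an age given as 7 weeks in one label and as a range up to 12 weeks in another, and gastrocnemius, the large calf muscle, was taken 11 weeks later for RNA sequencing. Every animal thus carried the virus and the construct, uninjected muscle was not analysed here, and nothing in the labels states that each library came from a separate animal. P-values therefore measure the spread between these libraries, which may be technical in part.

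Myf5, Myod1, Myog and Myf6 encode basic helix-loop-helix transcription factors that bind the DNA letters CANNTG, the E-box, together with E proteins. In muscle repair, satellite cells, the resident stem cells, enter the cycle with Myf5 and Myod1. Their progeny switch on Myog, leave the cycle and fuse, and Myf6 (also called MRF4) is the factor that mature fibres express most. Mymk (myomaker) and Mymx (myomerger) are membrane proteins of the muscle lineage that drive the merging of myoblasts. Cdh15 (M-cadherin) holds satellite cells to their fibre, and Ncam1 marks satellite cells, new or denervated fibres, synapses and non-myelinating Schwann cells.

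The promoters of Myog and Cdh15 are shown because Myog was among the members that varied most over the 8 libraries and Cdh15 was the steadiest. RefSeq sequences on GRCm38.p6 from 250 bases before to 50 bases after the gene start were held for 3 of the 8 members, these and Myf5. The RefSeq start of Cdh15 lies downstream of the GENCODE start given below, so the whole Cdh15 stretch lies inside the gene as GENCODE places it. The Myog sequence is chr1:134289754-134290053 on the plus strand and the Cdh15 sequence is chr8:122848124-122848423 on the plus strand. Capitals mark CANNTG, which reads alike on both strands, and CTANNNNTA, searched on both strands. The latter is a loose MEF2-like pattern whose middle bases are free, so a match need not be a MEF2 site. No marked stretches overlap in these 2 promoters.
Myog: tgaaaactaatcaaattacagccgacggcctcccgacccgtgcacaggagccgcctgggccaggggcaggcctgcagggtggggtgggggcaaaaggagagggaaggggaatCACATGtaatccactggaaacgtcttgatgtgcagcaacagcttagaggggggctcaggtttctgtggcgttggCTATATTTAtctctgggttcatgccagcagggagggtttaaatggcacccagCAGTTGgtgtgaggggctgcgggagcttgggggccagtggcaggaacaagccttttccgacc
Cdh15: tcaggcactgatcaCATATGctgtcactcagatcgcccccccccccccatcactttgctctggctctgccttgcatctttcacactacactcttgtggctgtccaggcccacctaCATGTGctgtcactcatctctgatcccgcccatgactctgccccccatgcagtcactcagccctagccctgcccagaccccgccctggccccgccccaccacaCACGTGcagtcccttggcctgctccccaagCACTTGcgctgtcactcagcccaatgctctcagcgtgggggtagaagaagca
In Myog, CANNTG began at positions -138 and -12 relative to the gene start and CTANNNNTA at -64. In Cdh15, CANNTG occurred 4 times and CTANNNNTA did not occur, and the Myf5 promoter held CTANNNNTA but no CANNTG. Of 32851 mouse promoters of this length in the same table, 72.3% held CANNTG and 21.0% CTANNNNTA, and the matches are a description only.

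The libraries held 34142447 to 37792459 reads in mouse genes under m31 and 25157486 to 39210248 under the control guide. Values are normalised reads, that is, read counts divided by 1 size factor per library. The labelled target checked the labels: Lama1 had 209, 295, 273 and 86.5 normalised reads in m31 libraries 1 to 4, against 4.18, 0, 2.25 and 0 in control libraries 1 to 4. All 9 markers of adult fibres were present in every library, from Acta1 to Myh2, each at a level per kilobase above that of at least 99.3% of the 15960 genes tested. Control replicate 3 and m31 replicate 4 stood apart from the other libraries in several of the genes below.

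Per kilobase of exon, Myf6 was by far the most abundant member. It stood at 1801 ± 236 normalised reads per kilobase under m31 and 1919 ± 272.5 under the control guide (mean and SD, n = 4 each), above 96.4% of the genes tested. Myod1 followed at 371 ± 76.6 under m31 and 302 ± 78.8 under the control guide, and Cdh15 at 239 ± 25 and 230.2 ± 12.2 normalised reads per kilobase. Myog had 80.2 ± 30.6 and 80.5 ± 35.5, Myf5 20.2 ± 4.76 and 22.1 ± 6.90, and Ncam1 18.0 ± 3.82 and 19.1 ± 5.43 normalised reads per kilobase under m31 and the control guide. Mymk and Mymx were last, with a mean over the 8 libraries of 12.0 and 5.10 normalised reads per kilobase, and the lowest library held 0.882 for Mymk and 0 for Mymx. Ranges over the 8 libraries did not overlap between Myf6 and Myod1, Cdh15 and Myog, or Myog and Myf5. They overlapped between Myod1 and Cdh15, although Myod1 was higher in all 8 libraries, and between all lower neighbours in this order, with Myf5 above Ncam1 in 5 of 8 libraries. The exon length counts all annotated isoforms, 8664 bases for Ncam1 against 1263 for Myf6, so the level of a gene that uses short isoforms is understated.

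Of the transcripts of the 4 myogenic factors, counted per kilobase, Myf6 made up 76.5 to 88.7% in every library. Its share was 79.4 ± 1.99% under m31 and 82.3 ± 4.73% under the control guide. Myod1 made up 16.2 ± 1.16% under m31 and 13.2 ± 4.32% under the control guide, Myog 3.49 ± 1.0% and 3.51 ± 1.59%, and Myf5 0.914 ± 0.280% and 0.947 ± 0.277% (SD, n = 4 each). The order Myf6, Myod1, Myog, Myf5 was the same in all 8 libraries. The lowest Myog share was 1.61% in control replicate 4, and the highest were 5.50% in control replicate 3 and 4.86% in m31 replicate 4.

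**Figure D1:**
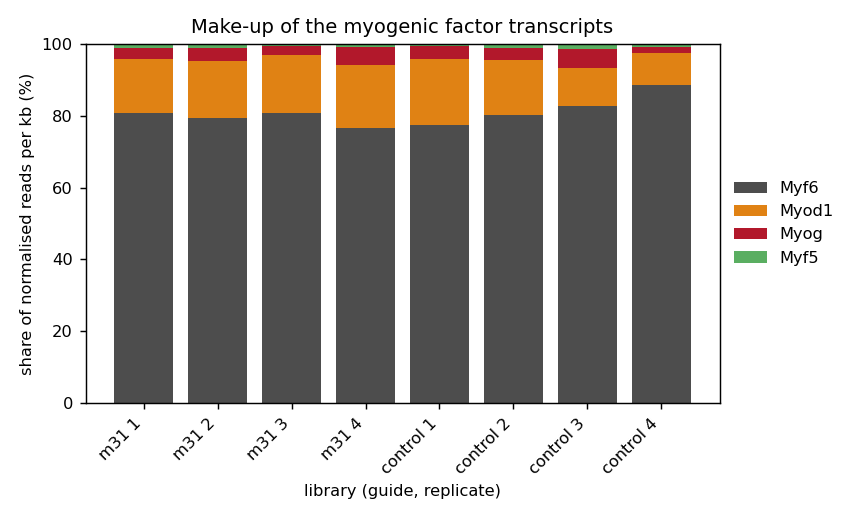
Stacked bars give each factor's share, in percent, of the normalised reads per kilobase of Myf6, Myod1, Myog and Myf5 in each library, m31 on the left and control on the right. Myf6 takes 76.5 to 88.7% of every bar.

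Among the myogenic factors, Myf6 (ENSMUSG00000035923, chromosome 10, GRCm38 107492853 to 107494737, minus strand) had 1945, 2104, 2558 and 2494 normalised reads in m31 libraries 1 to 4. Control libraries 1 to 4 had 2009.6, 2437, 2398 and 2852. The groups overlapped, with a mean of 2275 ± 298 under m31 and 2424 ± 344 under the control guide and a spread of only 1.47-fold from the lowest to the highest library. Myf5 (ENSMUSG00000000435), which lies on the same strand 6.72 kb away at 107482908 to 107486134, was a low gene. It had 42.7, 51.2, 28.2 and 46.5 normalised reads in m31 libraries 1 to 4, against 27.6, 53.4, 60.7 and 42.6 in control libraries 1 to 4. These values rest on 31 to 58 reads per library under m31 and 32 to 56 under the control guide, and the groups covered nearly the same range.

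Myod1 (ENSMUSG00000009471, chromosome 7, 46376474 to 46379099, plus strand) had 529.9, 621, 758 and 851 normalised reads in m31 libraries 1 to 4. Control libraries 1 to 4 had 701, 674, 448 and 422. Of the members it had the smallest unadjusted p, 0.142 by limma, with a mean of 689.98 ± 143 under m31 and 562 ± 147 under the control guide, and the groups overlapped. Control replicates 3 and 4 were the lowest libraries and m31 replicates 3 and 4 the highest. Myog (ENSMUSG00000026459, chromosome 1, 134289989 to 134292548, plus strand), the factor of differentiating myoblasts, had 91.2, 107.8, 92.8 and 187 normalised reads in m31 libraries 1 to 4. It had 105, 126, 189 and 61.3 in control libraries 1 to 4. The highest library of each group, m31 replicate 4 and control replicate 3, had nearly equal levels, and the group means were 119.8 ± 45.7 under m31 and 120.4 ± 53.0 under the control guide.

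The fusion genes were close to absent in most libraries and present in a few. Mymk (ENSMUSG00000009214, chromosome 2, 27061636 to 27072179, minus strand) had 5.70, 3.59, 3.64 and 84.9 normalised reads in m31 libraries 1 to 4. In control libraries 1 to 4 it had 3.35, 1.91, 40.5 and 1.33. The m31 group held 120 reads of Mymk, 106 of them in replicate 4, and the control group held 43 reads, 36 of them in replicate 3. The exact 95% counting interval was 69.5 to 103 normalised reads in m31 replicate 4 and 28.3 to 56.0 in control replicate 3. In the other 6 libraries the upper bound was at most 12.4, so these intervals, which cover counting error only, did not meet those of the high libraries.

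Mymx (ENSMUSG00000079471, chromosome 17, 45600971 to 45602102, minus strand), which encodes a small membrane protein, had 0, 0.898, 0.910 and 28.8 normalised reads in m31 libraries 1 to 4. It had 0.837, 4.77, 5.62 and 0 in control libraries 1 to 4. Replicate 4 held 36 of the 38 reads under m31, and control replicates 2 and 3 held 5 reads each of the 11 under the control guide. A count of 0 allows up to 2.85 normalised reads in m31 replicate 1 and 4.0 in control replicate 4. Only in m31 replicate 4 was Mymx clearly above this depth limit, with an exact 95% counting interval of 20.2 to 39.9. With a mean of 5.24 normalised reads over the 8 libraries, Mymx was under the minimum of 10 for the main test, and its difference comes from the fit with no minimum.

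Both adhesion genes were measured at moderate depth. Cdh15 (ENSMUSG00000031962, chromosome 8, 122847966 to 122867397, plus strand) had 839, 849.98, 730.02 and 685 normalised reads in m31 libraries 1 to 4. It had 768, 783, 748 and 693 in control libraries 1 to 4. Cdh15 varied the least of the members, 1.24-fold over the 8 libraries, and its lowest library was m31 replicate 4, where Mymk and Mymx were highest. Ncam1 (ENSMUSG00000039542, chromosome 9, 49502136 to 49798925, minus strand) had 138, 132, 149 and 204 normalised reads in m31 libraries 1 to 4. It had 129.7, 174, 229 and 131 in control libraries 1 to 4, and its highest library in each group was again m31 replicate 4 and control replicate 3. Ncam1 shares exon bases with the annotated antisense gene Gm11149, and since the strand setting of the counting is not given, reads of the pair cannot be told apart. The other 7 members share no exon base with another annotated gene.

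**Figure D2:**
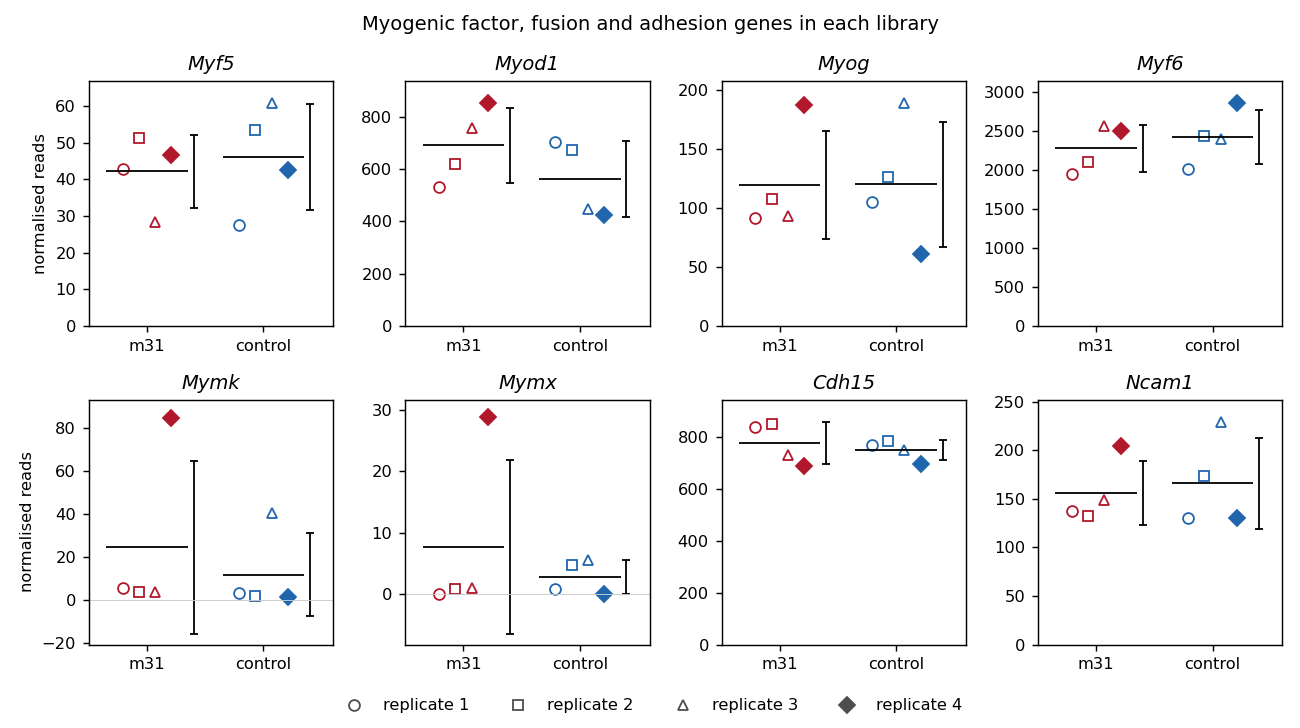
Each panel plots normalised reads of a member in the 8 libraries, m31 on the left (red) and control on the right (blue), with 1 symbol per replicate number, a line at the group mean and a bar of ± 1 SD (n = 4). Mymk stands at 84.9 in m31 replicate 4 and 40.5 in control replicate 3 and at 5.70 or less in the other libraries.

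No member passed the test between the guides. Of the 7 members tested, 0 passed an adjusted p of 0.05 in limma's test on log2(value + 1), 0 had an unadjusted p under 0.05, and for 0 were the groups free of overlap. Over all 15960 genes tested, 0.00627% passed (1 gene, Lama1), 6.79% had an unadjusted p under 0.05 and 3.85% had groups that did not overlap, 1.84% higher and 2.02% lower under m31. By edgeR and by DESeq2 on the recovered reads, 0 members passed and 0 had an unadjusted p under 0.05, while edgeR called 0.00627% and DESeq2 0.232% of all genes, and 7.11% and 7.08% had an unadjusted p under 0.05. DESeq2 gave no adjusted p for Mymk.

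How large a difference the data leave room for depends on the member. The log2 difference, m31 minus control, was -0.090 ± 0.12 (SE) for Myf6, with a 95% interval from -0.36 to 0.18 and an adjusted p of 0.911 by limma. For Cdh15 it was 0.048 ± 0.095, with an interval from -0.16 to 0.26 (adjusted p = 0.946). These intervals are the narrow ones: they leave room for ratios from 0.779 to 1.13 for Myf6 and from 0.894 to 1.20 for Cdh15. For Myod1 the log2 difference was 0.31 ± 0.20, from -0.12 to 0.74 (adjusted p = 0.813), for Ncam1 -0.070 ± 0.21, from -0.52 to 0.38, and for Myf5 -0.10 ± 0.28, from -0.71 to 0.51. For Myog, with 0.038 ± 0.33, the interval from -0.68 to 0.76 allows ratios from 0.623 to 1.69. For the fusion genes the comparison is close to uninformative: Mymk had 0.83 ± 1.08, from -1.56 to 3.22 (adjusted p = 0.904), and Mymx 0.16 ± 0.97, from -1.94 to 2.25. By DESeq2 and edgeR on the recovered reads, the log2 difference of Mymx was 1.46 and 1.47. Of its 38 reads under m31, 36 were in replicate 4. Without m31 replicate 4 the difference of Mymk was -0.18 and that of Mymx -0.91, and without control replicate 3 they were 1.77 and 0.55. Without both libraries Mymk stood at 0.76 and Mymx at -0.52, and the limma adjusted p of each stayed at 0.497 or above in every one of these fits. Without both, Myod1 stood at 0.11, Myog at 0.054 and Ncam1 at -0.038.

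**Figure D3:**
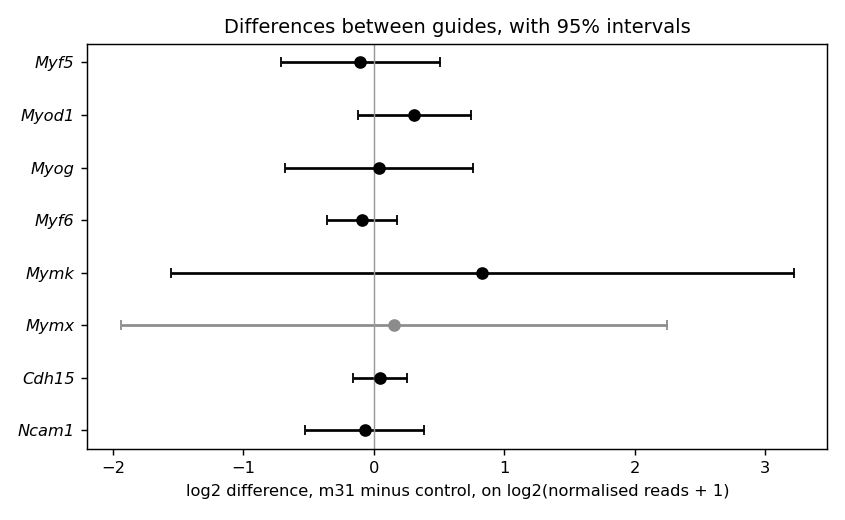
Points give the log2 difference, m31 minus control, of each member on log2(normalised reads + 1) and bars its 95% interval from limma, with Mymx in grey because it was under the minimum level for the main test. All 8 intervals include 0, and those of Mymk (-1.56 to 3.22) and Mymx are the widest.

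Ratios of a pair of members were formed within each library, of which that of Myog over Myf6 sets a regeneration gene against a fibre gene. The log2 ratio of Myog over Myf6 was -4.29 ± 0.43 under m31 and -4.42 ± 0.78 under the control guide (SD, n = 4 each), a difference of 0.13 with an exact two-sided permutation p of 0.914 over 70 arrangements. The ratio of Myod1 over Myf5 was 4.01 ± 0.53 under m31 and 3.60 ± 0.75 under the control guide on the log2 scale (exact permutation p = 0.400). That of Mymx over Mymk was -1.71 ± 0.70 under m31 and -1.03 ± 1.5 under the control guide (exact permutation p = 0.314). Adjusted over the 3 ratios, the smallest p-value was 0.6, and the smallest that 70 arrangements allow is 0.0286. Without control replicate 3 the log2 difference of Mymx over Mymk was -1.21 with an unadjusted exact permutation p of 0.0286, and every library in it other than m31 replicate 4 held 0 to 6 reads of each gene.

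Over libraries rather than guides, several members shared their highest values. For Myog, Mymk, Mymx and Ncam1, 4 of the 8 members, the pair of highest libraries was m31 replicate 4 and control replicate 3, while the same pair was highest for 8.82% of all genes tested. Mymx, under the minimum for the genes tested, had 5 reads in each of control replicates 2 and 3, so its second place is not settled. The pair of m31 replicate 4 and control replicate 3 was picked out after the values were seen, and the counts are a description. Myf6, Cdh15, Myf5 and Myod1 did not share it: Myf6 was highest in control replicate 4, Cdh15 in m31 replicate 2, Myf5 in control replicate 3 and Myod1 in m31 replicate 4. Myod1 was in fact next to lowest in control replicate 3.

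Chrng and Myh3 were high in the same libraries. The pair was highest for 2 of 17 nerve-regulated genes and 2 of 5 developmental sarcomere genes. The mean log2 value of each list, centred on the 8 libraries and including these genes, was also highest in this pair. In m31 replicate 4 and control replicate 3 it was 0.19 and 0.38 for nerve-regulated genes, at most -0.045 elsewhere. For sarcomere genes it was 0.62 and 0.58, at most 0.11 elsewhere. Summed reads were instead highest in control replicate 2 for the sarcomere list, at 14907, and in control replicate 3 for the nerve-regulated list, at 22310. The pair was highest for 8 of 12 proliferation genes and 3 of 13 satellite cell genes, against 8.82% of all genes tested. Only 6 of the 12 proliferation genes and 12 of the 13 satellite cell genes reached the minimum level for the main test. These counts and the 8.82% thus come from unlike sets, and the order of libraries is uncertain for genes under the minimum. Chrng, the acetylcholine receptor subunit of fetal and denervated muscle, had 2.85, 5.39, 9.10 and 40.9 normalised reads in m31 libraries 1 to 4, against 3.35, 1.91, 36.0 and 1.33 in control libraries 1 to 4. Myh3, the embryonic myosin heavy chain of newly formed fibres, had 118, 70.1, 193 and 344 in m31 libraries 1 to 4. It had 90.4, 106, 681 and 123 in control libraries 1 to 4, so its highest library was control replicate 3, whereas Mymk and Mymx were higher in m31 replicate 4. The proliferation gene Mki67 had 20.9, 17.1, 12.7 and 69.7 normalised reads in m31 libraries 1 to 4 and 36.0, 21.9, 68.6 and 17.3 in control libraries 1 to 4. Top2a, the DNA topoisomerase of dividing cells, stood at 55.3 in m31 replicate 4 and 50.6 in control replicate 3, and at 4.0 to 20.9 in the other 6 libraries. Pax7, the satellite cell factor, had 99.7, 119.5, 76.5 and 134 normalised reads in m31 libraries 1 to 4 and 104.6, 83.9, 85.4 and 73.3 in control libraries 1 to 4, with control replicate 3 below 4 of the other libraries. Myh8, the neonatal myosin heavy chain, ranged from 1861 to 3039 under m31 and from 1948 to 2423 under the control guide.

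**Figure D4:**
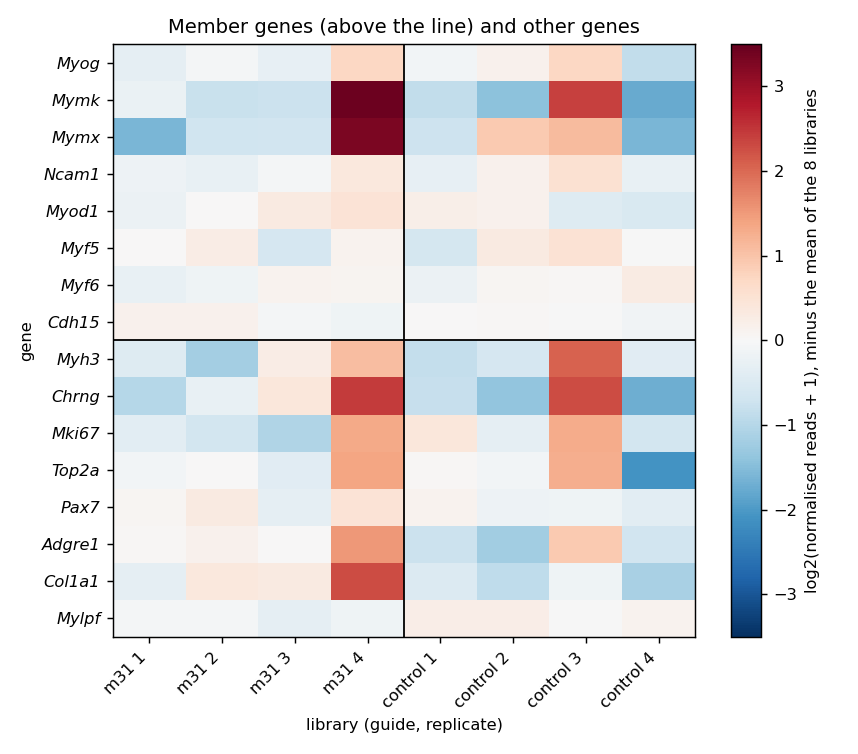
Colour gives log2(normalised reads + 1) of each gene minus its mean over the 8 libraries, m31 libraries on the left and control libraries on the right, with the members above the horizontal line. Mymk and Chrng are red in m31 replicate 4 and control replicate 3, Mki67 is less so, and Myog is only pale red there. Mymx is red in m31 replicate 4 and paler in control replicates 2 and 3, which are close to each other. Myf6 and Cdh15 stay pale throughout.

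Most macrophage markers and some stromal markers were highest in the same pair of libraries. The 8 macrophage markers summed to 4603 normalised reads in m31 replicate 4 and 2064 to 2647 in the remaining m31 libraries, and to 3303 in control replicate 3 and 1350 to 1648 in the remaining control libraries. Of these 8 genes, 7 were highest in that pair of libraries and none was at 0 throughout. Of 7 markers of fibro-adipogenic progenitors, the stromal cells of muscle, 4 were highest in that pair. The 7 summed to 79899 in m31 replicate 4 and 23467 to 34387 in the remaining m31 libraries. They summed to 32045 in control replicate 3 and 19215 to 24678 in the remaining control libraries. Col1a1 alone made up 55871 of the sum in m31 replicate 4, against 9342 to 14877 in the remaining m31 libraries. It had 10399 in control replicate 3 and 5235 to 8225 in the remaining control libraries. Schwann cell markers, which bear on Ncam1, summed to 4798 to 7067 under m31 and 5148 to 9334 under the control guide, and 0 of the 9 were highest in that pair, as were 0 of 6 tendon and 0 of 5 endothelial markers. Tendon markers summed to 28612 in m31 replicate 4 and 11872 to 19457 in the remaining m31 libraries. Their sum was 14546 in control replicate 3 and 7250 to 12570 in the remaining control libraries, so it too was highest in this library of each group. Endothelial markers were lowest in m31 replicate 4, at 7146 against 8473 to 8675 in the remaining m31 libraries. They summed to 8611 in control replicate 3 and 7221 to 7676 in the remaining control libraries. The adult fibre markers summed to 4805843 to 5501160 under m31 and 4474484 to 6142602 under the control guide. Slow fibre markers were lowest in m31 replicate 4, at 19291 against 29894 to 40796 in the remaining m31 libraries. They summed to 33870 to 42897 in the control libraries. Of all 7 marker lists, 0 genes passed by limma. The groups did not overlap for 2 of 8 slow fibre markers and 1 of 9 adult fibre markers, all lower under m31, against 2.02% of all genes. No other marker list held such a gene. An unadjusted p under 0.05 by limma was found for 5 of 8 slow fibre, 3 of 6 tendon and 3 of 7 progenitor markers. It was found for 2 of 9 Schwann, 1 of 8 macrophage, 1 of 9 adult fibre and 0 of 5 endothelial markers, against 6.79% of all genes. The median log2 difference was 0.61 for the macrophage list, 0.31 for that of the progenitors, 0.64 for 6 tendon markers and 0.069 for 5 endothelial markers. It was -0.32 for the Schwann list, -0.48 for 8 slow fibre markers and -0.078 for the adult fibre list. Without m31 replicate 4 the medians were 0.39 for the macrophage list, 0.19 for the progenitors, 0.42 for tendon, 0.13 for endothelial markers and -0.28 for slow fibre markers. Without control replicate 3 they were 0.91 for the macrophage list, 0.13 for endothelial markers and -0.16 for the adult fibre list. The part of these cells in the member values was not tested, and in whole muscle, fewer cells of a type and less RNA per cell cannot be told apart.

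Partners and antagonists of the myogenic factors also did not pass. Of 14 such genes, all tested, 0 passed in either direction, the median log2 difference was 0.017 (0.0052 over all genes tested), or 0.0090 to 0.061 with 1 library left out, and the groups did not overlap for 2, both lower under m31, as for 2.02% of all genes. One was Mef2c, a MADS-box partner of the myogenic factors, with 14105, 13349, 12819.9 and 14379 normalised reads in m31 libraries 1 to 4 and 15833, 14897, 16460 and 16134 in control libraries 1 to 4. All 4 m31 libraries were below every control library, and the log2 difference was -0.21 ± 0.076 (limma adjusted p = 0.698). The other was Id3, an inhibitor that binds E proteins, with 251, 403, 526 and 489.6 in m31 libraries 1 to 4 and 567, 602, 535 and 558 in control libraries 1 to 4. Its log2 difference was -0.49 ± 0.20 (limma adjusted p = 0.720), and -0.27 without m31 replicate 1. Tcf3, which encodes the E proteins E12 and E47, had 613, 730.5, 674 and 655 normalised reads in m31 libraries 1 to 4, against 639, 625, 459 and 446 in control libraries 1 to 4 (log2 difference 0.32, limma adjusted p = 0.720).

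No gene of the remaining lists passed. Of 5 developmental sarcomere genes, 0 passed and the median log2 difference was -0.14, which ranged from -0.32 without m31 replicate 4 to 0.15 without m31 replicate 2, so its sign was not stable. The named genes were Actc1, the cardiac actin also made in new skeletal fibres, at -0.35, and Tnnt2, cardiac troponin T, at 0.34, or -0.015 without control replicate 4. Of 12 satellite cell genes tested among 13, 0 passed and the median was 0.15, with Heyl, a Notch effector, at 0.45, Fgfr4 at 0.33, Hey1 at -0.22 and Pax7 at 0.28. This median was 0.014 without m31 replicate 4, 0.046 without control replicate 4 and 0.26 without control replicate 3. Of 15 other adhesion and fusion genes tested among 16, 0 passed and the median was 0.030, or 0.018 to 0.13 with 1 library left out. The largest log2 differences there were 0.59 for Boc, a co-receptor that promotes myogenesis, 0.56 for Elmo1, which with Dock1 activates Rac, and 0.56 for Myof, the membrane repair and fusion protein myoferlin (0.32 without m31 replicate 4), with limma adjusted p = 0.698, 0.660 and 0.733. Of 17 nerve-regulated genes, 0 passed and the median was -0.10, or -0.17 to -0.059 with 1 library left out. In this list the groups did not overlap for 1 of the 17 genes, lower under m31, against 2.02% of all genes tested. That gene was Hdac4, a class IIa histone deacetylase (log2 difference -0.39, limma adjusted p = 0.647). Fbxo32 had a log2 difference of -0.38 and Dach2 of -0.49, with limma adjusted p = 0.705 and 0.785. Dach2 stood at -0.22 without m31 replicate 4 and -0.76 without m31 replicate 3. Chrng had a log2 difference of 0.81, which was 0.13 without m31 replicate 4, 1.71 without control replicate 3 and 1.02 without both. Of 6 proliferation genes tested among 12, 0 passed and the median was -0.0062, or -0.18 to 0.19 with 1 library left out, so no direction is given. Mcm5 had a log2 difference of 0.20, and 0.032 without m31 replicate 4. Top2a had 0.46, which was 0.069 without m31 replicate 4 and -0.17 without control replicate 4. Mki67 had -0.37, which was -0.87 without m31 replicate 4, -0.0034 without control replicate 3 and -0.51 without both.

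The genes most like Myog over the 8 libraries, by the Pearson correlation of log2(value + 1) among 15953 genes, were Pld3, Ftl1-ps1 and Ulbp1. Their r values were 0.977, 0.971 and 0.971 (Spearman's rho 0.952, 0.952 and 0.881), and with control replicate 3 and m31 replicate 4 left out, r over the other 6 libraries was 0.990, 0.910 and 0.911. Ftl1-ps1 is annotated by its name as a pseudogene of a ferritin chain, so its reads are uncertain. For Myf6 the nearest were Wdr82, Rbks and Gm28876, with r of 0.975, 0.963 and 0.938 and rho of 0.976, 0.976 and 0.929. With m31 replicate 1 and control replicate 1 left out, their r was 0.942, 0.936 and 0.855. These genes were chosen for the highest r of many, so no p is given. Pld3, for which the span was narrow, stood at 667 normalised reads in m31 replicate 4 and 645 in control replicate 3, and at 436 to 599 in the other 6 libraries.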

How the data were processed

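The study measured RNA of 8 gastrocnemius samples, in NEBNext Ultra libraries, per the labels. The authors deposited a table of size-factor-normalised read signal. STAR and DESeq2 stand in the submitters' processing notes with no version, beside GRCh38.p12, a human build, although the identifiers are mouse ones. Counting program, annotation and strand setting: not given in the sources used here. Of 11 value columns, 8 match library names in the labels, and the other 3 were not used. The 5 construct entries of the table were kept out of the gene tests.

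Symbols were found for 22979 of 23008 identifiers. Every value (100% within 0.01 of a read) was a whole multiple of 1 read's worth, so read counts were recovered. Main test: limma 3.58.1 in R 4.3.3 on log2(value + 1), with an intensity trend, for the 15960 genes with a mean of at least 10, with Benjamini-Hochberg adjustment over all of them. The design foresaw edgeR for raw counts, and the normalised unit called for limma. The recovered reads were also fitted with edgeR 4.0.16 (1 gene called) and DESeq2 1.42.0 (37 called, no adjusted p for 339). Fold changes of low genes on this scale depend on the pseudocount and may be understated. The tests were checked on simulated data.

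The members and the 13 gene lists (129 genes) were chosen with earlier results of these data known. Named genes were the members, up to 3 genes per list with the smallest unadjusted p, Pax7, Myh3, Myh8, Chrng and Mki67, Lama1, and the 3 genes most like Myog and Myf6. Genes of the fibre and non-muscle marker lists are given as sums and medians, apart from Col1a1, Acta1 and Myh2. Levels per kilobase and gene places use GENCODE on GRCm38. Alternatives were other minimums and pseudocounts, recentring, quantile normalisation, library weights, a replicate block, left-out libraries, edgeR and DESeq2. Replicates differed beyond sampling noise, with a chi-square per degree of freedom of 13.0 to 52.2 between libraries of a group.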

Additional observations from a re-analysis of the deposited data

Results flagged for a closer look

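In 12 of the 72 groups of 4 libraries checked, over 36 genes, a library lay far from the other 3, by Dixon's criterion at the 95% level on normalised reads. Chance flags about 1 in 20 groups of independent normal values. These genes were chosen with results known and share the 8 libraries, so that rate is no yardstick for this count. The far library was m31 replicate 4 in 8 groups, control replicate 3 in 3 and control replicate 4 in 1.

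Among the members, Mymk stood at 84.9 in m31 replicate 4, against 3.59 to 5.70 in the remaining m31 libraries, and at 40.5 in control replicate 3, against 1.33 to 3.35 in the remaining control libraries. Mymx stood at 28.8 in m31 replicate 4, against 0 to 0.910 in the remaining m31 libraries. Chrng followed Mymk in both groups, at 40.9 in m31 replicate 4 and 36.0 in control replicate 3. Myh3 was far in control replicate 3 alone, at 681 against 90.4 to 123.

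In m31 replicate 4 the fusion and repair gene Myof stood at 632 against 313 to 343, and the proliferation genes Mki67 at 69.7 and Top2a at 55.3 against at most 20.9 and 20.7 in the remaining m31 libraries. Ftl1-ps1 and Ulbp1, picked for their likeness to Myog, stood at 70.5 and 31.2 in the same library. Mcm5 was lowest in control replicate 4, at 34.6 against 39.3 to 40.1. No cause of these values was tested.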

How the results depend on the processing

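No member passed the threshold in the 149 fits of a member under the alternatives run, where the smallest adjusted p was 0.497, while Lama1 passed in all 19. Cdh15, Myod1 and Myf6 kept their direction in each of them. The number of genes called was 37 with DESeq2 (23 higher, 14 lower), 3 without both m31 replicate 4 and control replicate 3 (3 higher), and 1 to 2 with a library left out, of which 0 to 1 were lower. Members called stayed at 0.

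With 1 library left out, log2 differences ranged from -0.32 to 0.075 for Myf5, -0.25 to 0.29 for Myog, -0.18 to 1.77 for Mymk, -0.91 to 0.72 for Mymx and -0.21 to 0.10 for Ncam1. They ranged from -0.015 to 0.53 for Tnnt2, -0.034 to 0.20 for Myh8, -0.17 to 0.95 for Top2a, -0.52 to 0.53 for Myh3, -0.070 to 0.12 for Pld3, -0.30 to 0.15 for Ftl1-ps1, -0.46 to 0.31 for Ulbp1, -0.088 to 0.028 for Wdr82, -0.31 to 0.14 for Rbks and -0.26 to 0.032 for Gm28876. The ratio of Myog over Myf6 ranged from -0.24 to 0.38 and that of Mymx over Mymk from -1.21 to -0.0023, with the lowest exact permutation p at 0.0286 without control replicate 3. Library weights turned Myf5 to 0.14, Mymx to -0.024, Myh3 to 0.13, Wdr82 to 0.023 and Rbks to 0.045. Myog turned to -0.0056 by DESeq2 and -0.0094 by edgeR. Without both libraries Mymx turned to -0.52, Myh8 to -0.033, Myh3 to 0.15 and Ulbp1 to 0.0061. The cause of these turns was not tested.

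The labels do not say that the replicate number pairs the libraries. Deviations of same-numbered libraries correlated at 0.05, -0.05, -0.13 and -0.18, and those of other pairs at -0.18 to 0.22. Such correlations cannot exclude a shared batch. With the replicate block the count of genes called was 1, the differences did not change, and the ratio of Myog over Myf6 had an exact sign-flip permutation p of 1.0. Depth is low for Mymk and Mymx, with 0 to 6 reads in most libraries. For Mymk the libraries differ beyond their counting intervals.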
